A study of Rattus norvegicus with 21 samples.

Results

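Astrocytes panned from the forebrain of 7-day-old rats and kept 7 days in HBEGF without serum (HBEGF P7 cultures) were compared with the same kind of culture begun from 1-day-old rats (HBEGF P1 cultures). The members were the 3 arrays whose titles name cultured panned astrocytes of P7, without serum or its withdrawal, and the 3 arrays whose titles name those of P1. They make up 6 of the 21 arrays of the series. Every gene was compared, and each array is shown, because the HBEGF P7 arrays varied among themselves.

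Both kinds of culture came from Sprague Dawley rats, from cells caught on dishes coated for the integrin ITGB5, and both received HBEGF at 5 ng/ml for 7 days with no serum. The other groups, also of 3 biological replicates each, were fresh P7 and fresh P1 panned cells lysed at once, P7 cells in 10% foetal calf serum for 7 days (serum P7 cultures), such cultures moved to HBEGF for 7 more days (withdrawn P7 cultures), and MD cultures, mixed cultures of P1 forebrain in 10% serum prepared as McCarthy and de Vellis described. One characteristics label of the HBEGF P7 arrays says p1, while their titles and source names say P7; the titles were followed. The cells were a panned population and not a clone, and no label gives the sex or number of animals behind a replicate. RNA was measured on rat genome arrays, and levels are log2 intensity.

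HBEGF is a ligand of the EGF receptor and serves as the survival factor that lets panned astrocytes live without serum. In the first week after birth forebrain astrocytes divide, spread their processes and begin to switch on genes of mature function such as glutamate uptake. Oligodendrocyte progenitors, young neurons, microglia and cells of the meninges share the tissue from which the cells are panned.

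No astrocyte marker was called between the groups, and the defining ones were present in every array. Gfap, the glial filament protein, was at 14.59, 13.64 and 14.64 in the HBEGF P7 arrays and at 14.46, 14.20 and 14.53 in the HBEGF P1 arrays. Gja1, the main astrocyte connexin, averaged 14.51 ± 0.09 in HBEGF P7 and 14.46 ± 0.09 in HBEGF P1 cultures (SD, n = 3 each). For neither gene were the groups apart. Of 27 measured astrocyte markers, 0 were called, against 1.11% of all genes, so this count lies near that share and is no result about the list. The median log2 change of these markers was -0.11, against -0.002 over all genes. Slc1a2, the glutamate transporter GLT-1, averaged 7.07 ± 0.53 in HBEGF P7 and 6.82 ± 0.11 in HBEGF P1 cultures (SD, n = 3 each; log2 change 0.25, SE 0.20, adjusted p = 0.754). Egfr, the receptor for the added factor, was at 12.58, 12.42 and 11.51 in HBEGF P7 and at 12.61, 12.95 and 12.25 in HBEGF P1 cultures, and these ranges overlapped. Hbegf (log2 change -0.15), Aqp4 (-0.23), Aldh1l1 (0.01), Slc1a3 (0.08) and S100b (0.30) were not called either. The arrays of Itgb5, the panning antigen, lay apart (11.13 to 11.59 in HBEGF P7 and 10.58 to 10.89 in HBEGF P1 cultures), but the test was not passed (log2 change 0.58, SE 0.32, adjusted p = 0.561).

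Over all genes, 158 of 14217 (1.11%) were called: 107 (0.753%) were higher and 51 (0.359%) lower in HBEGF P7 than in HBEGF P1 cultures. A gene was called at an adjusted p under 0.05 in limma and a log2 change of at least 1, which is a doubling or halving of intensity, with the spread estimated over all 21 arrays. The arrays of the groups did not overlap for 157 of the 158, and for 2168 of all genes (15.2%), 1090 higher (7.67%) and 1078 lower (7.58%). At an unadjusted p under 0.05 there were 1935 genes (13.6%). The calls rest on the spread shared with the other groups: when the 6 culture arrays were fitted alone, 0 genes were called by limma, the lowest adjusted p was 0.118, and 1406 genes had an unadjusted p under 0.05. With all groups in the fit, 46 of the 158 calls (0.324% of genes), 26 higher and 20 lower, held whichever 1 of the 6 arrays was left out.

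The largest rises that held with every array left out in turn were those of Esm1, S100a6 and Tpm2. S100a6 (calcyclin, a small calcium-binding protein) had the lowest adjusted p of the comparison. It was at 12.81, 11.91 and 12.02 in the HBEGF P7 arrays, against 8.87, 8.35 and 8.56 in the HBEGF P1 arrays. Each HBEGF P7 array was above every HBEGF P1 array, and the log2 change was 3.66 (SE 0.26, adjusted p = 3.1e-06). Esm1 (endocan, a secreted proteoglycan known from endothelium) was at 10.22, 9.98 and 7.83 in HBEGF P7, against 5.34, 5.72 and 5.00 in HBEGF P1 cultures, a change of 3.99 (SE 0.45, adjusted p = 0.000409). HBEGF P7 replicate 3 was the low one of its group. Tpm2, the beta-tropomyosin of actin filaments, was at 11.02, 10.05 and 9.82 in HBEGF P7, against 7.61, 7.28 and 7.41 in HBEGF P1 cultures (log2 change 2.86, SE 0.36, adjusted p = 0.000805). A second, dim Tpm2 probe set did not differ (log2 change -0.08, adjusted p = 0.978).

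Loxl2, Cemip and Mfap5 act in or on the extracellular matrix. Loxl2, which as a lysyl oxidase cross-links collagen, was at 8.54, 7.17 and 8.57 in HBEGF P7, against 5.31, 5.25 and 6.13 in HBEGF P1 cultures. Cemip, which takes part in breaking down hyaluronan, was at 10.81, 9.69 and 10.61 in HBEGF P7, against 7.83, 7.99 and 8.01 in HBEGF P1 cultures. Both sets of arrays were apart (log2 changes 2.52 and 2.43). Mfap5, a protein of elastic microfibrils, was at 10.18, 7.28 and 6.96 in HBEGF P7, so replicate 1 stood above the other two, and at 5.76, 5.47 and 5.12 in HBEGF P1 cultures. Tnmd, the tendon membrane protein tenomodulin, changed by 3.25 (SE 0.62) and Itgbl1, an integrin beta-like protein, by 2.66 (SE 0.56), in both with replicate 1 highest of the HBEGF P7 arrays.

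The other large rises had varied functions. Cyp26b1, the enzyme that degrades retinoic acid, was at 9.86, 9.81 and 8.86 in HBEGF P7, against 6.03, 6.11 and 6.26 in HBEGF P1 cultures (log2 change 3.38, SE 0.67, adjusted p = 0.0162). A second Cyp26b1 probe set was also higher in each HBEGF P7 array but was not called (log2 change 1.33, adjusted p = 0.542). Sema3d, a guidance semaphorin, changed by 2.74, Upk1b, a tetraspanin of urothelium, by 2.66, Mgst2, a membrane glutathione transferase, by 2.37, Anxa3, an annexin, by 2.33 and Twist1, a mesenchymal transcription factor, by 2.22. The 3 further, dim Anxa3 probe sets had log2 changes between 0.08 and 0.12 and were not called, and nor was a second Twist1 probe set (0.64). Adgre1, an adhesion receptor of the macrophage surface, was at 7.34, 5.28 and 8.77 in HBEGF P7, against 4.36, 3.97 and 4.41 in HBEGF P1 cultures (log2 change 2.88, adjusted p = 0.0446).

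The 15 largest rises were taken from called genes whose arrays did not overlap. Of these, 7 held with any 1 array left out: S100a6, Esm1, Tpm2, Upk1b, Loxl2, Mgst2 and Anxa3. The call of Tnmd ended without HBEGF P1 replicate 3, and that of Cyp26b1 without HBEGF P1 replicate 1 or 2. Sema3d and Itgbl1 lost theirs without HBEGF P7 replicate 1 or HBEGF P1 replicate 2 or 3. Mfap5 and Twist1 lost theirs without HBEGF P7 replicate 1 or any HBEGF P1 array, and Adgre1 and Cemip without HBEGF P7 replicate 1 or 3 or any HBEGF P1 array.

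**Figure D1:**
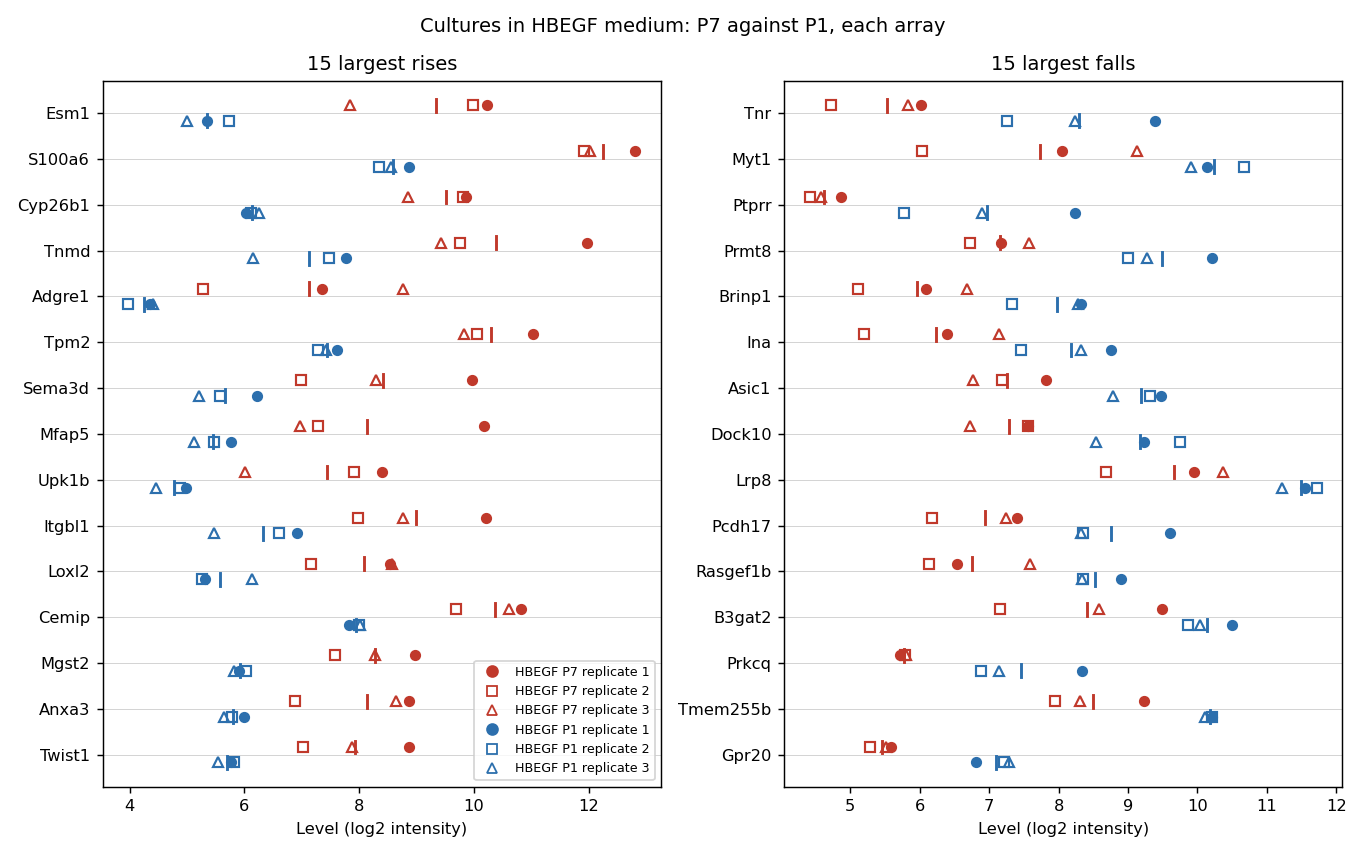
Level in log2 intensity (horizontal axis) of the 15 largest rises (left) and the 15 largest falls (right) in HBEGF P7 relative to HBEGF P1 cultures. Both were taken from called genes whose arrays did not overlap. Each symbol is 1 array, red for HBEGF P7 and blue for HBEGF P1, with the replicate given by shape, and each vertical tick is the mean of 3 arrays. S100a6 lies between 11.91 and 12.81 in the HBEGF P7 arrays and between 8.35 and 8.87 in the HBEGF P1 arrays, while the HBEGF P7 arrays of Mfap5 spread from 6.96 to 10.18.

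The largest falls that held with every array left out in turn were those of Tnr, Ptprr and Prmt8. Tnr, tenascin-R, a matrix protein made by the oligodendrocyte lineage and some neurons, was at 6.02, 4.72 and 5.83 in the HBEGF P7 arrays, against 9.39, 7.25 and 8.23 in the HBEGF P1 arrays. The groups did not overlap, and the log2 change was -2.77 (SE 0.43, adjusted p = 0.00377). Prmt8, a membrane-bound arginine methyltransferase of brain, was at 7.17, 6.72 and 7.57 in HBEGF P7, against 10.21, 9.002 and 9.27 in HBEGF P1 cultures (log2 change -2.34, SE 0.27, adjusted p = 0.000414). Ptprr, a tyrosine phosphatase that acts on MAP kinases, was at 4.86, 4.41 and 4.58 in HBEGF P7, against 8.23, 5.77 and 6.89 in HBEGF P1 cultures (log2 change -2.35). Here the HBEGF P1 arrays were the ones that spread. Asic1, an acid-sensing ion channel, was at 7.82, 7.19 and 6.76 in HBEGF P7, against 9.47, 9.32 and 8.78 in HBEGF P1 cultures (log2 change -1.94, SE 0.22, adjusted p = 0.000409). Of 3 other Asic1 probe sets, those at log2 changes of -1.21 and -1.61 also passed the test, and a dim one did not (0.00).

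Myt1, a zinc finger factor of neural progenitors, was at 8.05, 6.03 and 9.12 in HBEGF P7, against 10.13, 10.67 and 9.91 in HBEGF P1 cultures. Ina, the neuronal filament protein alpha-internexin, was at 6.40, 5.19 and 7.13 in HBEGF P7, against 8.75, 7.46 and 8.32 in HBEGF P1 cultures. In both genes HBEGF P7 replicate 2 was lowest and replicate 3 highest. Lrp8, the reelin receptor ApoER2, changed by -1.83, Pcdh17, a protocadherin, by -1.82, B3gat2, a glucuronyltransferase that makes the HNK-1 sugar, by -1.72, and Dock10 by -1.89. Brinp1 (-2.02), Rasgef1b (-1.77), Prkcq, protein kinase C theta (-1.68), Tmem255b (-1.68) and Gpr20, an orphan receptor (-1.64), completed the 15 largest falls. These were taken from called genes whose arrays did not overlap, so larger changes without a call, such as that of Dlx1 (-3.34), are not among them. Second probe sets of Dock10 (log2 change 0.05, adjusted p = 0.967), Rasgef1b (-0.34) and Ina (-1.34) were not called.

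The tightest falls were smaller. Jph3, a junctophilin that ties the endoplasmic reticulum to the cell membrane, was at 6.04, 5.90 and 6.08 in HBEGF P7, against 7.64, 7.40 and 7.07 in HBEGF P1 cultures (log2 change -1.36, SE 0.14, adjusted p = 0.000192). Gpr20 was at 5.58, 5.28 and 5.51 in HBEGF P7, against 6.81, 7.21 and 7.29 in HBEGF P1 cultures (adjusted p = 0.000281). Lrfn2, a synaptic adhesion protein, had a log2 change of -1.07 (SE 0.12, adjusted p = 0.000409), and its call ended without HBEGF P7 replicate 3 or HBEGF P1 replicate 2. Lrfn2 was dim, at 5.05, 5.17 and 4.74 in HBEGF P7, against 6.09, 6.27 and 5.81 in HBEGF P1 cultures. The median level over all genes in the HBEGF culture arrays was 8.70. Of the 15 largest falls, Tnr, Ptprr, Prmt8, Brinp1, Asic1, Rasgef1b, Tmem255b and Gpr20 held with any 1 array left out. Pcdh17 and Prkcq lost their calls without HBEGF P1 replicate 1, and Lrp8 without HBEGF P1 replicate 2. Dock10 lost its call without HBEGF P7 replicate 3 or HBEGF P1 replicate 1 or 2. Myt1 lost its call without any 1 array other than HBEGF P7 replicate 3, B3gat2 without any other than HBEGF P7 replicate 1, and Ina without HBEGF P7 replicate 1 or 2 or HBEGF P1 replicate 1 or 3.

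The 250 bases before a RefSeq transcript start are shown for the 3 largest rises and the 3 largest falls that held and whose transcript start lay within 1000 bases of the gene's outermost annotated start, so that the start regions of genes that moved together can be read. This distance was chosen after the values were seen. Tnr and Ptprr are not shown, since the windows listed for them lie farther inside the gene. The next falls with such a window after Prmt8 were those of Reep1, a shaper of the endoplasmic reticulum, at 6.62, 6.66 and 7.74 in HBEGF P7, against 8.81, 8.64 and 8.46 in HBEGF P1 cultures, and Elfn2, a leucine-rich repeat protein of the neuronal surface, at 6.82, 6.76 and 7.10 in HBEGF P7, against 9.40, 7.77 and 8.07 in HBEGF P1 cultures. The transcript starts of Esm1 and Elfn2 are the outermost ones, and those of S100a6, Tpm2, Prmt8 and Reep1 lie 348, 340, 691 and 408 bases inside it, so these windows may overlap other transcripts of the gene. The sequences come from RefSeq on GRCr8, 5′ to 3′ in the direction of the gene, and capitals mark motif matches. The motifs of AP-1 (TGANTCA), of TEAD factors (CATTCC), of the GC box bound by Sp1 (GGGCGG) and of the TATA box (TATAAA) were searched on both strands. A match of the AP-1 motif can share bases with one of the TEAD motif.
Esm1 (chr2:46609003-46609252, plus strand): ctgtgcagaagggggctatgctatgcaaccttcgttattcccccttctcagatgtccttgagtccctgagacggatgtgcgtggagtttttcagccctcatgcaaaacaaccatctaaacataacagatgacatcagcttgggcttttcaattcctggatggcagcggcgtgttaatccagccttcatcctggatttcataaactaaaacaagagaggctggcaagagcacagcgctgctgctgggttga
S100a6 (chr2:178398287-178398536, plus strand): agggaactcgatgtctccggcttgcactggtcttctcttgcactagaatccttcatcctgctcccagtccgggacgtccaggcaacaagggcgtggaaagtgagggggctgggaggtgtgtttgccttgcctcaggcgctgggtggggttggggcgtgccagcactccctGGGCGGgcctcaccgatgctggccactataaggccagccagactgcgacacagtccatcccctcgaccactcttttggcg
Tpm2 (chr5:62575727-62575976, minus strand): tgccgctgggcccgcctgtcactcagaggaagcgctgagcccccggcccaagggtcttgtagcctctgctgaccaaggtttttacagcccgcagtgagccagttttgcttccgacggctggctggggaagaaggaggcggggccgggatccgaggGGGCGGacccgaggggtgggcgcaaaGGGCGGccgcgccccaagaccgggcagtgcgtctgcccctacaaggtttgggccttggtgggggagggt
Prmt8 (chr4:162303346-162303595, minus strand): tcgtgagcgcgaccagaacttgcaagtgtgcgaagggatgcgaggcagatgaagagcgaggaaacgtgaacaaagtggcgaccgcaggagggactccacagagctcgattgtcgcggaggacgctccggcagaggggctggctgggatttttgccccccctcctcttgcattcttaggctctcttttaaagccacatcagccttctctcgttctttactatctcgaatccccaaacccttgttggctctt
Reep1 (chr4:105304132-105304381, plus strand): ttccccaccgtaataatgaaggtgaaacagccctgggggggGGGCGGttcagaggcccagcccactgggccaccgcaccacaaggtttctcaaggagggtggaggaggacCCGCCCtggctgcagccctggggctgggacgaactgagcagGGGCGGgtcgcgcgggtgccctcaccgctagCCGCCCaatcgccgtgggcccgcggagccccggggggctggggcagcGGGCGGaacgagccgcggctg
Elfn2 (chr7:112153281-112153530, minus strand): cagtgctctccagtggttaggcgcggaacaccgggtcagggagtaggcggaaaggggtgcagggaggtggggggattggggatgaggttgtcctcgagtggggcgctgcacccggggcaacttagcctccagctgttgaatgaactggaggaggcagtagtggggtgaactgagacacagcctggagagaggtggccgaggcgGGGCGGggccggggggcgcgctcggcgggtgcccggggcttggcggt

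The only matches in these 6 windows were GC boxes, 1 in S100a6, 2 in Tpm2, 5 in Reep1 and 1 in Elfn2. G and C made up 49.2% of the Esm1 window and 72.4% of the Reep1 window, the lowest and highest shares of the 6. An entry of the same length existed for 83 of the 107 genes that rose, 37 of the 51 that fell and 11733 of all 14217. The CATTCC motif was in 15 windows of genes that rose (18.1%), in 4 of genes that fell (10.8%) and in 10.4% of all windows. For TATAAA these shares were 14.5%, 0% and 8.06%, for TGANTCA 7.23%, 8.11% and 4.84%, and for GGGCGG 63.9%, 64.9% and 54.2%. Of the 11727 windows placed against the gene table, 17.9% lay over 1000 bases inside the gene. Without these, 74, 24 and 9632 windows were left, and the shares were 18.9%, 8.33% and 10.2% for CATTCC, 13.5%, 0% and 7.82% for TATAAA, 6.76%, 8.33% and 4.57% for TGANTCA, and 63.5%, 79.2% and 56.6% for GGGCGG. These shares are descriptions, with no test.

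Beyond single genes, the lists of related genes showed matrix genes as the group with the most calls. Over the 27 lists, with 539 measured entries, 25 different genes were called, among 158 calls over all genes. With the replicate number as a block in the HBEGF cultures these counts were 40 and 235. No list had over 33 measured genes, and for each the share called over all genes comes to less than 1 call. So 0 calls or 1 call in a list lies near it and is no result about the list. Over all genes 49.57% of the changes were positive. Of 33 measured matrix genes 9 rose and 1 fell (Tnr), 30.3% of the list against 1.11% of all genes, with a median log2 change of 0.72. The arrays of 18 members lay higher without overlap, as did those of 7.67% of all genes. The count of rises depended on single arrays. It was 4, 10 and 5 without HBEGF P7 replicate 1, 2 or 3, against 1.08%, 1.72% and 0.668% of all genes in those fits. Without HBEGF P1 replicate 1, 2 or 3 it was 4, 3 and 4, against 0.471%, 0.211% and 0.506%. Tnr fell in each case. Fn1, fibronectin, was at 12.66, 11.57 and 12.12 in HBEGF P7, against 10.70, 10.28 and 10.37 in HBEGF P1 cultures (log2 change 1.66, SE 0.23, adjusted p = 0.00207). Bgn, the small proteoglycan biglycan, was at 11.60, 11.004 and 10.86 in HBEGF P7, against 9.63, 9.51 and 9.36 in HBEGF P1 cultures (1.66, SE 0.25). Loxl1, a lysyl oxidase of elastic fibres, was at 10.87, 10.27 and 10.61 in HBEGF P7, against 9.07, 8.49 and 9.16 in HBEGF P1 cultures (1.68, SE 0.25). All 3 held with any 1 array left out.

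The remaining matrix genes that rose were collagens, a laminin chain and fibulin-5. Col8a1, a collagen of basement membranes, changed by 1.98, Col6a1 by 1.37, Col5a1 by 1.08 and Col5a2 by 1.07, Fbln5 by 1.36 and Lama1 by 1.23. None of these 6 held with every single array left out, and Col8a1 kept its call only without HBEGF P7 replicate 3. The brain proteoglycans of the list, Vcan (-1.07), Ncan (-0.71) and Bcan (-0.29), and tenascin-C (Tnc, -0.58) had negative changes and were not called.

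Of 19 fibroblast and meningeal markers 2 rose, against 0.753% of all genes, and 0 or 1 did with any 1 array other than HBEGF P7 replicate 2 left out. The list varied beside the matrix genes. Their mean level was 10.37, 8.43 and 11.05 in the HBEGF P7 arrays, against 9.06, 8.75 and 9.34 in the HBEGF P1 arrays, so 2 HBEGF P7 arrays lay above all HBEGF P1 arrays and replicate 2 lay below them. The members that rose were the collagen chain Col1a2 (13.18, 11.59 and 12.92 in HBEGF P7, against 10.88, 10.76 and 10.93 in HBEGF P1 cultures) and Pcolce, an enhancer of procollagen cutting (log2 change 1.69). A second Col1a2 probe set was not called (log2 change 1.64, adjusted p = 0.0751). Col1a2 lost its call without any 1 array other than HBEGF P7 replicate 2, and Pcolce without HBEGF P1 replicate 1 or 2. The list median was 0.87, 18 of 19 changes were positive, and 0 members were under a level of 6 in all 6 arrays. Dcn, decorin, was at 11.58, 7.60 and 12.30 in HBEGF P7 and at 9.70, 9.11 and 10.07 in HBEGF P1 cultures, with no call. Without HBEGF P7 replicate 2, 7 members rose, against 1.72% of all genes in that fit. The part of such cells in the matrix changes was not tested. In bulk RNA, more cells of a type and more RNA per cell cannot be told apart, here and in the results that follow.

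S100 and annexin genes, calcium-binding proteins of which several associate with membranes, had 3 calls among 19 members, all higher: S100a6, Anxa3 and Anxa4 (15.8%, against 0.753% of all genes). The list median was 0.71. Anxa4 was at 10.29, 8.81 and 10.58 in HBEGF P7, against 8.18, 7.96 and 8.80 in HBEGF P1 cultures (log2 change 1.58, SE 0.36, adjusted p = 0.0393), and its lowest HBEGF P7 array was only just above its highest HBEGF P1 array. A second Anxa4 probe set was not called (log2 change 1.30). The call of Anxa4 ended without HBEGF P7 replicate 1 or 3 or HBEGF P1 replicate 1 or 2. Anxa1 (1.49), S100a11 (1.48), S100a4 (1.40) and Anxa2 (1.24) were not called, and in each HBEGF P7 replicate 2 was the lowest of its group. Without HBEGF P7 replicate 2, 7 members rose, against 1.72% of all genes in that fit, and 2 to 4 did without any 1 of the other arrays. The list mean was 11.17, 10.30 and 11.15 in HBEGF P7, against 10.10, 9.56 and 10.20 in HBEGF P1 cultures.

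The lists of oligodendrocyte progenitors and of mature oligodendrocytes had 1 call each, both lower. Over all genes 0.359% were lower, so neither count is a result about its list. Sox10, the transcription factor that defines the lineage, was at 6.45, 5.98 and 6.26 in HBEGF P7, against 8.54, 7.5 and 7.53 in HBEGF P1 cultures (log2 change -1.63, SE 0.21, adjusted p = 0.00128), and it was the only call among 7 progenitor markers. This call held with any 1 array left out. Pdgfra, the progenitors' growth factor receptor, was at 12.37, 9.46 and 12.80 in HBEGF P7, against 13.40, 13.21 and 13.09 in HBEGF P1 cultures. All HBEGF P7 arrays were lower, replicate 2 by far the most, and the change was not called (adjusted p = 0.322). Cspg4, which codes for the surface marker NG2, was not called and had a positive change of 0.67. Among 12 markers of mature oligodendrocytes, Ugt8, which makes the myelin lipid galactosylceramide, fell by 1.25 on the log2 scale. Ugt8 was dim, at 4.66, 5.30 and 5.20 in HBEGF P7, against 6.61, 5.73 and 6.58 in HBEGF P1 cultures. Its call ended without HBEGF P7 replicate 1 or HBEGF P1 replicate 1 or 3, and its second, dim probe set did not differ (0.05).

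Neuronal markers were lower in HBEGF P7 replicates 1 and 2 and not in replicate 3. Their mean was 6.95, 6.43 and 8.25 in the HBEGF P7 arrays, against 7.997, 8.02 and 8.40 in the HBEGF P1 arrays. Of 25 markers 0 were called, at a median log2 change of -0.58, with 7 members under a level of 6 in all 6 arrays. Gad1, which makes GABA, was at 4.22, 4.18 and 8.92 in HBEGF P7, against 8.71, 8.58 and 9.93 in HBEGF P1 cultures. Dcx, doublecortin of young neurons, was at 7.24, 5.55 and 10.37 in HBEGF P7, against 10.22, 10.01 and 10.68 in HBEGF P1 cultures. Without HBEGF P7 replicate 3, 7 markers fell, against 0.661% of all genes in that fit. Several of the largest falls have neuronal roles, and the part of neurons in them was not tested.

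Microglia and macrophage markers were at 6.03, 5.66 and 7.64 on average in the HBEGF P7 arrays, against 5.54, 5.57 and 5.71 in the HBEGF P1 arrays. None of 19 was called, at a median log2 change of 0.88, and 5 were under a level of 6 in all 6 arrays. C1qb, a complement chain of microglia, was at 5.73, 5.61 and 9.88 in HBEGF P7, against 5.65, 5.39 and 5.71 in HBEGF P1 cultures, so it stood high in replicate 3 alone. Of the 19 changes 15 were positive, and the arrays of 5 markers lay higher without overlap, against 7.67% of all genes. Aif1 (-0.10), Itgam (-0.02) and Cx3cr1 (-0.03) were among the rest, with log2 changes near 0. Without HBEGF P7 replicate 2, 2 markers rose, against 1.72% of all genes in that fit, and without any 1 of the other arrays 0 did. Adgre1, above, was highest in replicate 3, as C1qb was. The part of macrophages in the rise of Adgre1 was not tested. Endothelial markers stayed between 5.79 and 5.96 in HBEGF P7 and between 5.59 and 5.67 in HBEGF P1 cultures on average, with 0 of 13 called.

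**Figure D2:**
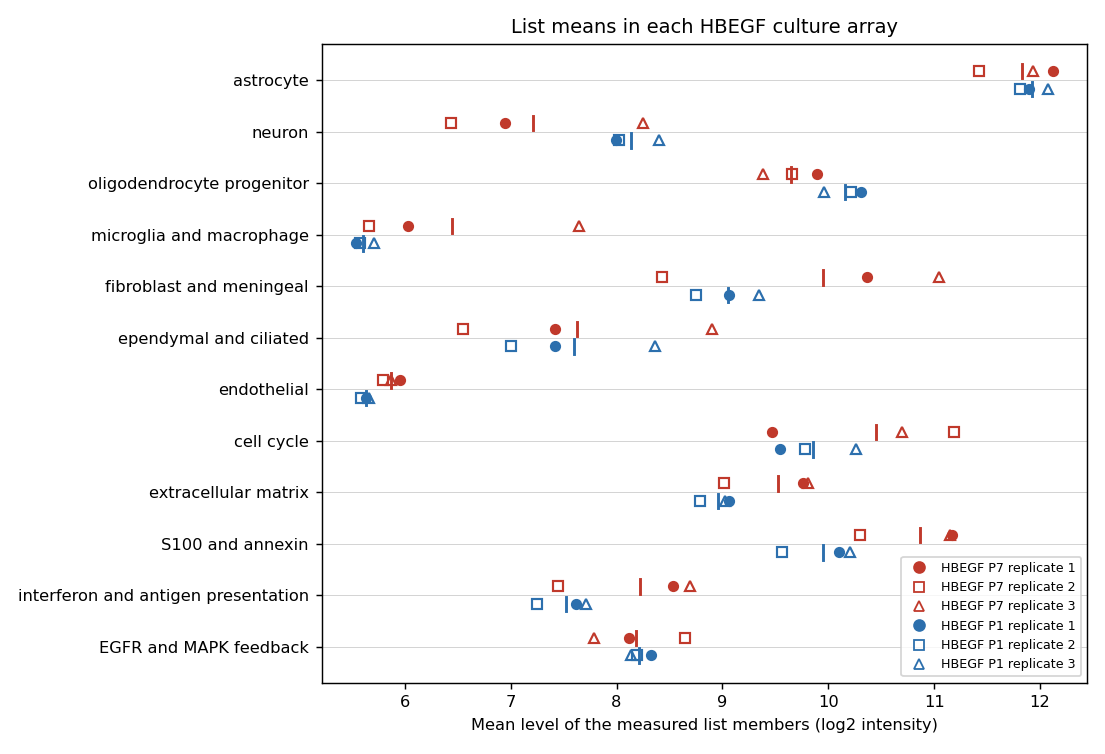
Mean level of the measured members of 12 gene lists in each HBEGF culture array (log2 intensity, horizontal axis), red for HBEGF P7 and blue for HBEGF P1, with 1 symbol per replicate and a vertical tick at the mean of 3 arrays. The red symbols of the neuron, microglia, fibroblast and cell cycle lists lie far from each other: fibroblast means run from 8.43 to 11.05 in HBEGF P7 and from 8.75 to 9.34 in HBEGF P1 arrays.

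Of 33 cell cycle genes 32 had a positive change, with a median of 0.64, and 0 were called, against 1.11% of all genes. Their mean was 9.47, 11.19 and 10.69 in HBEGF P7, against 9.54, 9.78 and 10.26 in HBEGF P1 cultures. Mki67, which codes for the division marker Ki-67, was at 9.85, 11.99 and 10.92 in HBEGF P7, against 9.74, 9.80 and 10.05 in HBEGF P1 cultures. Replicates 2 and 3 were high and replicate 1 was at the level of the HBEGF P1 arrays. Without HBEGF P7 replicate 1, 18 cell cycle genes rose, against 1.08% of all genes in that fit, and without any 1 of the other arrays 0 did.

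Feedback genes of the EGF receptor pathway, which answer to the signal that HBEGF gives, had 1 call among 23. Tgfa, a second ligand of the receptor, was at 6.70, 6.13 and 6.57 in HBEGF P7, against 8.67, 7.68 and 7.35 in HBEGF P1 cultures (log2 change -1.43, SE 0.27, adjusted p = 0.0114), and the call held with any 1 array left out. Dusp6, the phosphatase that turns ERK off, was at 10.94, 13.29 and 9.91 in HBEGF P7, against 10.76, 10.83 and 10.19 in HBEGF P1 cultures. Spry4, a Sprouty inhibitor, was at 8.63, 11.89 and 8.42 in HBEGF P7, against 9.05, 9.62 and 9.08 in HBEGF P1 cultures. Both were highest in HBEGF P7 replicate 2, by over 2 on the log2 scale.

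Immune and reactive genes had scattered calls. Cxcl10, an interferon-inducible chemokine, was at 8.18, 7.23 and 7.96 in HBEGF P7, against 5.72, 5.30 and 6.03 in HBEGF P1 cultures (log2 change 2.10, SE 0.50, adjusted p = 0.0466). Emp1, a membrane protein induced in reactive astrocytes, rose by 1.55. With Cxcl10 it made 2 calls among 22 reactive genes, against 0.753% of all genes. Tap1, the peptide transporter of antigen presentation, rose by 1.17 and was the only call among 26 interferon and antigen genes, of which 24 had positive changes. Emp1 lost its call without HBEGF P1 replicate 2, Tap1 without HBEGF P7 replicate 3 or HBEGF P1 replicate 2, and Cxcl10 without any 1 array other than HBEGF P7 replicate 2. Without HBEGF P7 replicate 2, 7 interferon and antigen genes and 6 reactive genes rose, against 1.72% of all genes in that fit, and without any 1 of the other arrays 0 or 1 of each list did. Further probe sets of Emp1 (log2 change 0.39) and Tap1 (0.09) were not called.

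The lists of neuropeptides and granins, of regional factors and of secreted factors that act on synapses had 1 call each. Penk, the precursor of enkephalin peptides, was at 12.89, 11.80 and 10.77 in HBEGF P7, against 10.13, 9.89 and 8.85 in HBEGF P1 cultures (log2 change 2.19, SE 0.48, adjusted p = 0.0304), the only call among 20 neuropeptide and granin genes. Irx1, a homeobox factor, fell by 1.14 on the log2 scale among 19 regional factors, and its second probe set did not differ (0.04). Irx1 was dim, at 5.22, 4.94 and 5.57 in HBEGF P7, against 6.53, 6.31 and 6.30 in HBEGF P1 cultures. Gpc6, a glypican that astrocytes secrete and that acts on synapses, rose by 1.01 among 15 such factors, and of its 3 other probe sets none was called (log2 changes 0.82, -0.05 and -0.17). Penk lost its call without HBEGF P7 replicate 1 or HBEGF P1 replicate 2 or 3, Irx1 without HBEGF P7 replicate 2 and Gpc6 without HBEGF P7 replicate 1 or HBEGF P1 replicate 2. Glutamate, GABA and ion transport, cholesterol synthesis, glutathione, phagocytosis, immediate-early, TGF-beta and BMP, mural, ependymal, and progenitor and Notch lists had 0 calls each.

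The 3 HBEGF P7 arrays were less alike than those of any other group by correlation and by SD. Their Spearman correlations ran from 0.952 to 0.975, against 0.988 to 0.990 among the HBEGF P1 arrays, and between the groups they ran from 0.958 to 0.982. An HBEGF P7 array was thus about as like an HBEGF P1 array as like its own replicates. The median SD of a gene was 0.231 in HBEGF P7 and 0.164 in HBEGF P1 cultures. A range of at least 2 over 3 arrays was found for 553 genes (3.89%) in HBEGF P7 and for 32 (0.225%) in HBEGF P1 cultures, against 305 in serum P7, 212 in withdrawn P7 and 22 to 43 in the other groups. Of these 553 genes 10 were called (1.81%, against 1.11% of all genes), and 169 had a log2 change of at least 1 between the groups without a call.

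The widest genes followed a pattern by replicate. Replicate 3 was the highest array for 344 of the 553 genes and replicate 2 the lowest for 365. Ptgds, the prostaglandin synthase abundant in meninges, was at 11.53, 6.83 and 13.90 in HBEGF P7 and at 10.99, 9.57 and 11.45 in HBEGF P1 cultures. Dlx1, a homeobox gene of GABA neurons, was at 7.55, 5.67 and 12.28 in HBEGF P7 and at 11.33, 11.68 and 12.52 in HBEGF P1 cultures. C3, the central complement protein, was at 9.41, 5.99 and 10.81 in HBEGF P7 and at 7.34, 5.87 and 7.65 in HBEGF P1 cultures. Stmn2, a microtubule protein of neurons, Igf2, a growth factor of meninges, Id3, a target of BMP signals, and LOC100912227 also had replicate 3 highest and replicate 2 lowest. Etv4, a transcription factor induced by ERK signals, was the other way round, at 7.70, 11.69 and 6.61 in HBEGF P7 and at 8.92, 9.11 and 8.97 in HBEGF P1 cultures, and so was Nrgn, a calmodulin-binding protein of neurons (8.08, 12.08 and 6.98 in HBEGF P7).

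The same replicate number was often extreme in both groups. Of the 344 genes with replicate 3 highest in HBEGF P7, 264 had replicate 3 highest in HBEGF P1 cultures too, and of the 365 with replicate 2 lowest, 267 had replicate 2 lowest there. Replicate 1 matched for 46 of 71 genes where it was highest and 70 of 93 where it was lowest, and replicate 3 for 64 of 95 where it was lowest. Of the 138 genes with replicate 2 highest, only 47 matched.

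**Figure D3:**
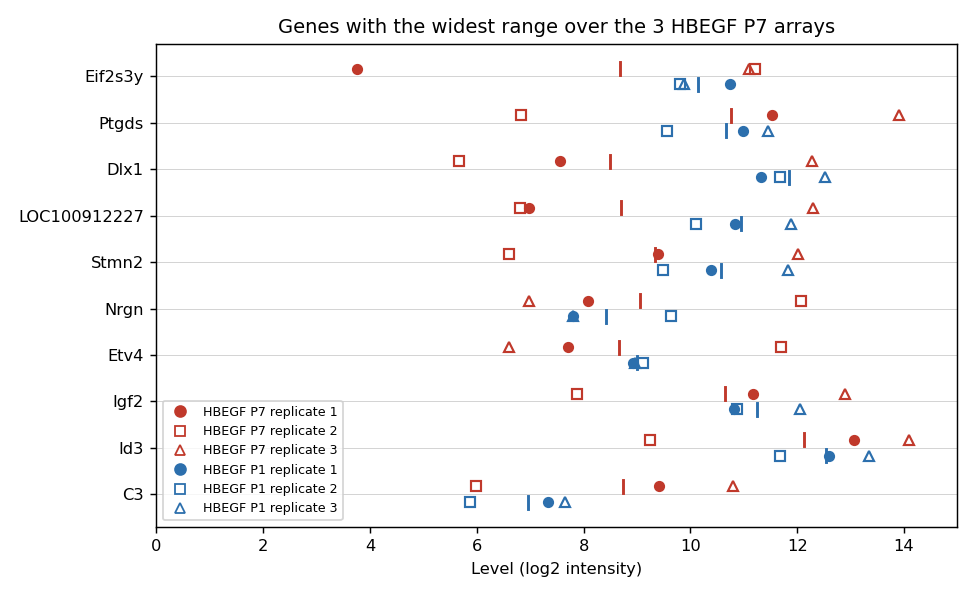
Level in log2 intensity (horizontal axis) of the 10 genes with the widest range over the HBEGF P7 arrays among those with a mean of at least 8 there, red for HBEGF P7 and blue for HBEGF P1, with the replicate given by shape and the group mean as a vertical tick. Replicate 2 (square) is lowest and replicate 3 (triangle) highest for Ptgds, Dlx1, Igf2, Id3 and C3, while Etv4 and Nrgn are highest in replicate 2, at 11.69 and 12.08.

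Of genes with a mean of at least 8 in HBEGF P7, the Y-linked gene Eif2s3y had the widest range. It was at 3.76, 11.21 and 11.09 in the HBEGF P7 arrays and at 10.73, 9.81 and 9.88 in the HBEGF P1 arrays. Xist, the transcript of the inactive X chromosome, with a mean under 8, spread wider still: it was at its highest, 11.82, in the HBEGF P7 array where Eif2s3y was lowest, and at its lowest, 3.93, in another. All 9 arrays from P1 rats had both transcripts at 8 or more, and of the 12 arrays from P7 rats 1 did, a fresh one. Both were at 8 or more in 3 HBEGF P1 arrays and in 0 HBEGF P7 arrays. Between these groups a difference in the mix of sexes thus cannot be told apart from one in age. Bgn and Tnmd, which were higher in HBEGF P7 cultures, lie on the X chromosome. The part of sex in the differences between the groups or between HBEGF P7 arrays was not tested.

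To see whether the age difference of cultures was already present before culture, the fresh cells were compared in the same way. The comparisons share no arrays, but both take each gene's spread from the same fit over all groups. A gene of small spread is thus favoured in both, and the shared calls are not an overlap of independent results. In fresh P7 against fresh P1 cells 221 genes (1.55%) were called, 195 higher (1.37%) and 26 lower (0.183%). In all, 13 genes were called in both comparisons, 8.23% of the culture calls and 5.88% of the fresh calls. Higher at P7 in both were Bgn, Anxa3, Cpq, a carboxypeptidase, Tnfsf13, the cytokine APRIL, Lgals3bp, a galectin-binding protein, Kcne4, a potassium channel subunit, and Abcg3l1, an ABC transporter. Enc1, an actin-binding protein of young neurons, was lower at P7 in both. For the same direction, the shared calls were 3.62% of the fresh calls.

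Bgn was at 10.59, 9.79 and 9.98 in fresh P7 and at 8.72, 8.89 and 8.41 in fresh P1 cells, a log2 change of 1.44 (SE 0.25, adjusted p = 0.00372) beside 1.66 in cultures. Anxa3 was at 8.62, 8.02 and 7.71 in fresh P7 and at 6.0, 6.6 and 5.72 in fresh P1 cells (2.00 beside 2.33). Fresh calls that ended when some 1 fresh array was left out were those of Anxa3 (P7 replicate 1 or P1 replicate 3), Cpq (P7 replicate 1 or P1 replicate 2), Lgals3bp (P7 replicate 1 or P1 replicate 1 or 2), Kcne4 (any but P1 replicate 2) and Enc1 (any). In the cultures Bgn and Anxa3 kept their calls whichever array was left out. Tnfsf13 and Abcg3l1 lost theirs without HBEGF P1 replicate 1 or 2 or HBEGF P7 replicate 3, Cpq without HBEGF P7 replicate 1 or 3 or HBEGF P1 replicate 2, Enc1 without HBEGF P7 replicate 2 or HBEGF P1 replicate 2 or 3, and Kcne4 and Lgals3bp without any 1 array other than HBEGF P7 replicate 2. Tnfsf13 also lost its call without HBEGF P7 replicate 1, and Abcg3l1 without HBEGF P7 replicate 2. In the cultures a second Tnfsf13 probe set (log2 change 1.02) and the 3 other Enc1 probe sets, between -1.07 and -0.04, were not called.

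In 5 genes the age difference ran in opposite directions. Agt, angiotensinogen, which astrocytes secrete, was at 8.19, 7.44 and 7.07 in HBEGF P7, against 8.97, 9.14 and 9.003 in HBEGF P1 cultures, and at 11.69, 11.40 and 11.27 in fresh P7, against 9.77, 9.79 and 10.26 in fresh P1 cells. Omg, the myelin glycoprotein that limits axon growth, was at 7.54, 6.94 and 7.58 in HBEGF P7, against 8.94, 8.68 and 8.54 in HBEGF P1 cultures, and at 9.30, 9.14 and 8.68 in fresh P7, against 7.35, 7.17 and 7.63 in fresh P1 cells. In each of these 4 sets the arrays were apart. Pcdh20, a protocadherin, had log2 changes of -1.52 in cultures and 2.53 in fresh cells, Phactr3, a regulator of phosphatase 1 and actin, of -1.23 and 1.6, and Kctd4 of -1.11 and 1.16. In the cultures Pcdh20 lost its call without HBEGF P1 replicate 1 and Kctd4 without that array or HBEGF P7 replicate 3. Second probe sets of Pcdh20 (-1.18), Phactr3 (-0.02) and Kctd4 (-0.60) were not called in the cultures.

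The difference between the age effects was itself tested as a contrast over the 12 arrays within the same model. It was called for 116 genes (0.816%): the age difference was more positive in cultures for 23 (0.162%) and more negative for 93 (0.654%). S100a6 was among the 23, with a log2 change of 0.35 in fresh cells and 3.66 in cultures (difference 3.30, adjusted p = 0.00018). Slc1a2 was among the 93: it was at 10.47, 10.51 and 10.12 in fresh P7, against 8.10, 8.36 and 8.29 in fresh P1 cells, and its groups overlapped in culture (difference -1.87, adjusted p = 0.00316). Grin2c, an NMDA receptor subunit of astrocytes, was at 12.05, 12.21 and 11.66 in fresh P7, against 8.71, 8.56 and 9.11 in fresh P1 cells. In culture it was at 8.38, 9.03 and 8.42 in HBEGF P7 and at 8.26, 8.27 and 8.67 in HBEGF P1 arrays (difference -2.97). Of the 195 genes higher in fresh P7 cells, 126 had a positive change in culture, with a median of 0.16. Of the 107 genes higher in HBEGF P7 cultures, 87 had a positive change in fresh cells, with a median of 0.35. Of the 51 lower ones 31 had a negative change in fresh cells, with a median of -0.07. Over all genes 49.57% of the changes in culture were positive, and the median change was -0.002 in culture and -0.018 in fresh cells.

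**Figure D4:**
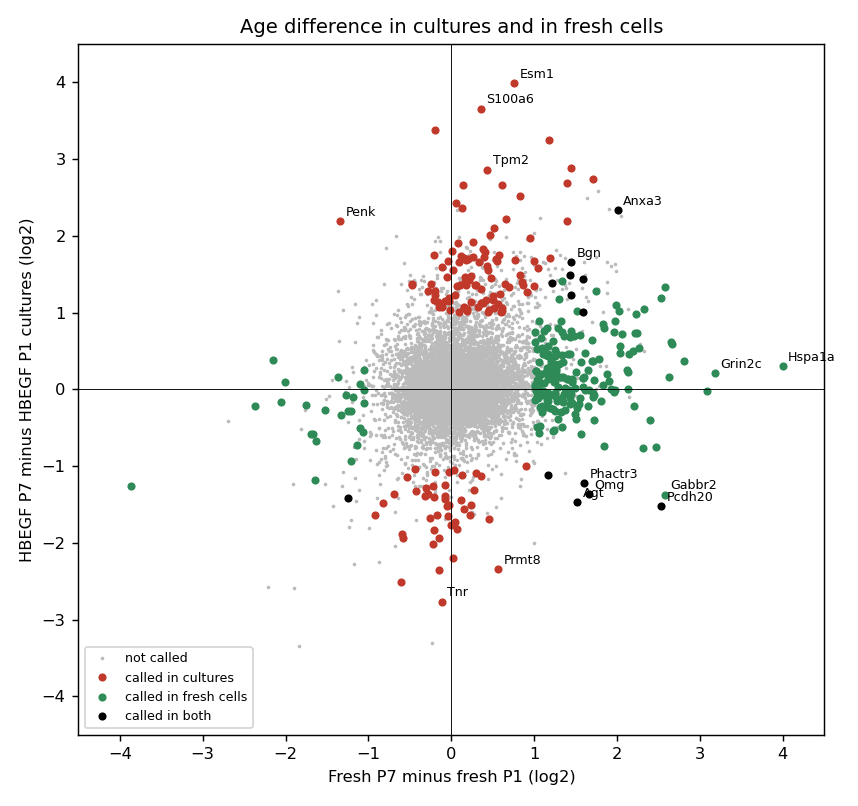
Log2 change of fresh P7 over fresh P1 cells (horizontal axis) against that of HBEGF P7 over HBEGF P1 cultures (vertical axis), 1 point per gene for 14217 genes. Red points were called in cultures, green in fresh cells and black, 13 genes, in both. S100a6, at 0.35 on the fresh axis and 3.66 on the culture axis, lies near 0 in fresh cells, and Agt, Omg, Pcdh20 and Phactr3 lie in the lower right.

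S100a6 and Tpm2 were highest in the serum-exposed groups of the series. S100a6 averaged 12.25 ± 0.49 in HBEGF P7, 8.59 ± 0.26 in HBEGF P1, 13.94 ± 0.27 in serum P7, 13.75 ± 0.25 in withdrawn P7 and 13.98 ± 0.01 in MD cultures, and 7.59 ± 0.53 in fresh P7 and 7.24 ± 0.28 in fresh P1 cells (SD, n = 3 each). Tpm2 averaged 10.30 ± 0.64 in HBEGF P7, 7.43 ± 0.17 in HBEGF P1, 12.87 ± 0.08 in serum P7, 11.91 ± 0.88 in withdrawn P7 and 11.38 ± 0.35 in MD cultures, and 7.30 ± 0.37 and 6.87 ± 0.32 in fresh P7 and fresh P1 cells. In both genes HBEGF P7 cultures lay between HBEGF P1 cultures and the serum-exposed groups. For S100a6 the serum-exposed groups, and for Tpm2 HBEGF P1 cultures and fresh P7 cells, differed by less than the larger SD of the groups. Esm1 differed in order: it averaged 9.34 ± 1.31 in HBEGF P7, 5.35 ± 0.36 in HBEGF P1 and 11.26 ± 0.40 in serum P7 cultures, but 6.04 ± 0.14 in MD cultures. Among the falls, Prmt8 averaged 7.16 ± 0.42 in HBEGF P7 and 9.49 ± 0.63 in HBEGF P1 cultures and 5.40 to 6.72 in the other 5 groups, so HBEGF P1 cultures were the high group. Sox10 averaged 6.23 ± 0.24 in HBEGF P7 and 7.86 ± 0.59 in HBEGF P1 cultures and 5.86 to 6.25 elsewhere. These levels are descriptions, and differences with the other groups were not tested here.

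**Figure D5:**
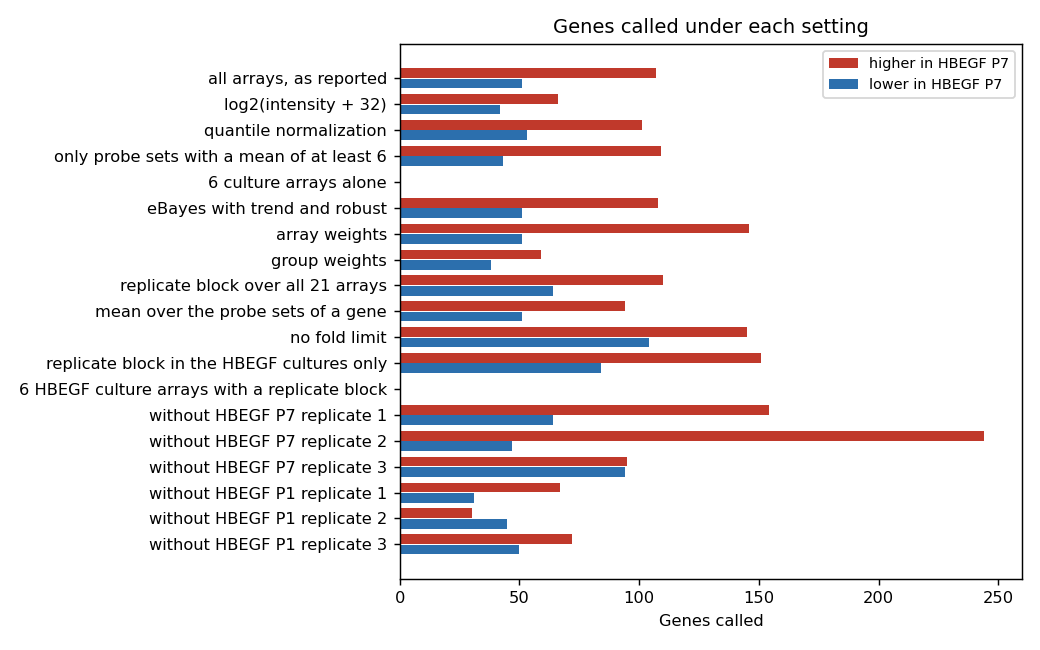
Number of genes called (horizontal axis) higher (red) or lower (blue) in HBEGF P7 than in HBEGF P1 cultures, with all arrays as reported and under each alternative setting or with 1 array left out. The bars are 107 and 51 with all arrays, 244 and 47 without HBEGF P7 replicate 2, 30 and 45 without HBEGF P1 replicate 2, and 0 when the 6 culture arrays are fitted alone.

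The number of calls depended on single arrays. It was 218 without HBEGF P7 replicate 1, 291 without replicate 2 and 189 without replicate 3, and 98, 75 and 122 without HBEGF P1 replicate 1, 2 or 3. Without HBEGF P7 replicate 2, 244 genes were higher and 47 lower, and 129 of the 291 were among the 158. Without HBEGF P1 replicate 2, 65 of the 75 were.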

How the data were processed

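Forebrain astrocytes were measured on Affymetrix rat arrays, 21 in 7 groups of 3. The authors deposited a single RMA intensity for each probe set in each array (per the submitters' processing notes). RMA corrects background, makes the arrays' distributions alike and summarises probes, so a shift shared by most genes would not be seen. Its software and version are not given in the labels used. The range of the deposited intensities, 10 to 37801, and array medians of 128 to 146 show a linear scale, so they were turned into log2. Of 31042 probe sets, 20826 carried 1 symbol, 436 several and 9780 none in the platform's annotation, and 20758 were matched by gene number to the GRCr8 gene table. Each of 14217 genes was counted through 1 probe set, the one of highest mean over the 21 arrays; 4525 genes had several. For named genes called in the cultures, other probe sets that were not called are given.

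Comparisons were made in R 4.3.3 with limma 3.58.1 (lmFit on 7 group means, contrasts.fit, eBayes), with 14 residual and 2.89 prior degrees of freedom and Benjamini-Hochberg adjustment over all probe sets within a comparison. Every adjusted p and log2 change is from this fit unless said otherwise; SE is the moderated standard error and ± is the SD of 3 arrays. A call needed an adjusted p under 0.05 and a log2 change of at least 1. With 3 arrays against 3, the smallest p of an exact two-sided permutation test is 0.1. That number of arrays limits the precision. Nothing in the labels says which replicates came from which animals, so p-values measure the spread between these samples.

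The replicate numbers paired the HBEGF cultures: deviations from the group means of same-numbered HBEGF P7 and HBEGF P1 arrays correlated at 0.44, 0.477 and 0.588, while those of fresh P7 and fresh P1 cells correlated at 0.236, 0.355 and -0.1. This pairing comes from the data and not from the labels. A fit with the replicate number as a block was therefore an alternative.

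Named genes were the 15 largest rises and 15 largest falls among called genes with no overlap between arrays, the 6 lowest adjusted p, up to 4 called members of a described list, 10 astrocyte and pathway genes whatever their values, the 10 genes widest within HBEGF P7 with a mean of at least 8, the 6 largest called differences of age effects in each direction, the 4 largest fresh rises and falls, and genes called in both comparisons, 88 in all. Other list members and sex-linked transcripts were named after their values were seen. The 27 lists (601 entries, 539 measured) were written from textbook knowledge, and the members, lists and tests were chosen with earlier results of these data known. Alternatives were an offset of 32 before log2, quantile normalization, a mean level of at least 6, the compared groups alone, trend and robust moderation, array or group weights, the replicate block, the mean over probe sets, no fold limit, and leaving out each array. The code was tested on simulated data.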

Additional observations from a re-analysis of the deposited data

Results flagged for a closer look

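The difference between the age effects (cultured minus fresh, log2) was called in limma's contrast for 23 genes in the positive and 93 in the negative direction. Those among the named genes are given here with their difference. More positive in cultures were Penk (3.54), S100a6 (3.30), Esm1 (3.23), Cldn5, the claudin of brain endothelium (2.52), Tpm2 (2.43), Mgst2 (2.24), Dct, dopachrome tautomerase (2.16), and Fn1 (1.57). Cldn5 and Dct owe this to the fresh cells: Dct was at 5.75, 5.68 and 5.50 in fresh P7, against 8.18, 8.03 and 7.84 in fresh P1 cells, and between 4.91 and 5.23 in all HBEGF cultures. More negative in cultures were Lrfn2 (-1.04), Jph3 (-1.08), Sox10 (-1.46), Gpr20 (-1.61), Asic1 (-1.79), Slc1a2 (-1.87), Prkcq (-2.14), Kctd4 (-2.28), Plekhd1 (-2.44), Phactr3 (-2.82), Prmt8 (-2.90), Grin2c (-2.97), Agt (-2.99), Omg (-3.02), Hspa1a, an inducible heat shock protein whose probes may not tell it from its near-identical copy (-3.70), Gabbr2, a GABA-B receptor subunit (-3.95), and Pcdh20 (-4.05). Hspa1a was at 13.18, 13.70 and 13.03 in fresh P7, against 9.42, 9.32 and 9.17 in fresh P1 cells, and between 6.26 and 7.5 in the HBEGF cultures. Gabbr2 was at 12.30, 11.88 and 11.87 in fresh P7, against 9.64, 9.22 and 9.45 in fresh P1 cells, and was not called in the cultures (log2 change -1.37, adjusted p = 0.09).

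The calls of S100a6, Cldn5, Dct, Gpr20, Asic1, Slc1a2, Kctd4, Phactr3, Prmt8, Grin2c, Agt, Omg, Hspa1a, Gabbr2 and Pcdh20 held with any 1 of the 12 arrays left out. Penk lost its call without fresh P7 replicate 3 or fresh P1 replicate 2 or 3, Jph3 without HBEGF P1 replicate 1 or fresh P1 replicate 3, and Lrfn2 without HBEGF P7 replicate 3, HBEGF P1 replicate 2 or fresh P1 replicate 1. Esm1 and Mgst2 lost theirs without HBEGF P1 replicate 1 or 3, fresh P7 replicate 2 or 3 or fresh P1 replicate 2 or 3. Tpm2 lost its call without those arrays or HBEGF P1 replicate 2. Sox10 lost its call without any fresh P1 array, or without replicate 2 or 3 of HBEGF P7 or of fresh P7. Fn1 kept its call only without HBEGF P7 replicate 1 or 2, HBEGF P1 replicate 1 or fresh P1 replicate 1, and Plekhd1 and Prkcq only without HBEGF P7 replicate 1 or HBEGF P1 replicate 2.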

How the results depend on the processing

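The count of 158 calls was 0 when the 6 culture arrays were fitted alone, 0 in those arrays with a replicate block, 97 with group weights and 249 with no fold limit, and it ran from 75 to 291 with 1 array left out. With the replicate block over all 21 arrays it was 174 and in the HBEGF cultures only 235. The 221 fresh calls became 336 with array weights and 619 with no fold limit, 288 from the 6 fresh arrays alone, and 136 to 213 with 1 array left out. The 116 differences between age effects became 58 from the 12 arrays alone and 185 with array weights, and ran from 50 to 343 with 1 array left out. The 25 called list members became 0 from the 6 arrays, with or without the replicate block, and 16 with group weights. They became 40 with the replicate block in the HBEGF cultures, and 11 to 55 with 1 array left out. The calls over all genes in these settings were 0, 97, 235 and 75 to 291. Of the 30 largest rises and falls, taken from called genes without overlap, 0 were called from the 6 arrays, with or without the block. With 1 array left out 19 to 27 were. The 3.62% of fresh calls shared in direction became 0% from the 6 arrays or those with the block, 1.74% with group weights, and 0.905% to 5.88% with 1 array left out. No call of a named gene reversed under any of these settings. Some named genes without a call changed sign with 1 array left out. The log2 change of Ptgds then ran from -1.49 to 2.04 and that of Nrgn from -0.88 to 1.67. Of 59 named genes called in cultures, an offset of 32 or the mean over probe sets ended 12 calls each, group weights 19, and quantile normalization 2; the blocked fit of the HBEGF cultures ended 0 calls. The deposited values hold no measure of background, so folds of dim genes are uncertain. The replicate block within the HBEGF cultures was added after the values were seen. The causes of these shifts were not tested.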

Other observations

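Of the 46 calls that held with any 1 array left out, several lie outside the lists and were picked here after their values were seen. Fstl1, a secreted follistatin-like protein, was at 13.63, 13.19 and 12.89 in HBEGF P7, against 11.70, 11.93 and 11.95 in HBEGF P1 cultures. Thy1, a surface glycoprotein of fibroblasts and neurons, was at 6.45, 6.19 and 6.27 in HBEGF P7, against 4.79, 5.11 and 5.02 in HBEGF P1 cultures. Msln, mesothelin of body cavity linings, was at 8.92, 7.90 and 8.26 in HBEGF P7, against 6.58, 6.70 and 6.76 in HBEGF P1 cultures. Casp8, the initiator caspase of death receptors, was at 6.96, 6.78 and 6.82 in HBEGF P7, against 5.75, 5.54 and 5.21 in HBEGF P1 cultures. Ctsz, a lysosomal protease, and Myof, a membrane repair protein, changed by 1.37 and 1.71 on the log2 scale. In each of these the HBEGF P7 arrays were above all HBEGF P1 arrays.

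Among the falls that held, Slc1a1, the neuronal glutamate transporter EAAC1, was at 7.40, 7.05 and 6.99 in HBEGF P7, against 9.11, 8.52 and 8.73 in HBEGF P1 cultures. Cux2, a homeobox factor of cortical neurons and their progenitors, was at 7.32, 6.79 and 6.86 in HBEGF P7, against 8.66, 8.03 and 8.13 in HBEGF P1 cultures. Asic4, a relative of Asic1, changed by -1.39 and Atcay, the brain protein caytaxin, by -1.39. The groups did not overlap for any of these 4 genes.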
